A study of Mus musculus with 2 samples.

Results

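Cytoglobin (Cygb) and 9 other genes, Ajap1, Fam210b, St8sia1, Kcnn3, Nostrin, Fam163a, Ttyh2, Sulf1 and Htra3, were followed through fibroblasts and the other cell classes of the mouse cerebral cortex. They are 10 of the 25595 genes in the 2 deposited tables, and all 10 had UMIs (unique molecular identifiers, each 1 captured transcript) in both libraries. The 10 genes were chosen by their levels in fibroblasts of these same libraries, N-PRα-KO against WT, so those levels are a description and carry no test. Fibroblasts were defined without these genes, as kept cells in which Col1a1, Col1a2 and Col3a1 together made up at least 0.4% of UMIs. This gave 1043 cells of 4196 in the knockout library and 669 of 10069 in the control library.

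Each library came from cortex dissociated together with its meninges and enriched on magnetic beads for CD140a, the protein encoded by Pdgfra, before capture on the BD Rhapsody system. The knockout library came from N-PRα-KO mice, which carry Nestin-Cre and a Pdgfra allele floxed on both copies, and the control library from WT mice of the strain C57BL/6J. The WT mice are not labelled as carrying Nestin-Cre or the floxed allele, so Cre, the floxed allele and strain background cannot be told apart from the deletion. Nestin drives Cre in neural progenitors and their descendants, and fibroblasts of the meninges largely arise outside that lineage. Age, sex and the number of animals are not labelled for either library. With 1 library per genotype no difference below has a replicate check, no test across libraries is possible, and every interval is a 95% interval for counting error only.

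Brain fibroblasts lie in the meninges and along larger vessels, where they lay down collagens and basement membrane. Cytoglobin is a haem protein of the globin family that binds oxygen and removes nitric oxide, and it is known from fibroblasts and related stellate cells of many organs. Several of the other genes touch nitric oxide, the cell surface or the matrix: Nostrin binds the endothelial nitric oxide synthase, St8sia1 makes the ganglioside GD3, Kcnn3 is a calcium-activated potassium channel, Sulf1 trims sulfate groups from heparan sulfate, and Htra3 is a secreted protease.

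The label that groups these genes as marks of knockout-library fibroblasts held for 8 of the 10. Cygb, Ajap1, Fam210b, St8sia1, Kcnn3, Nostrin, Fam163a and Ttyh2 were at least 2-fold higher in N-PRα-KO than in WT fibroblasts. Sulf1 was close to level, and Htra3 was lower. Of all genes measured in fibroblasts, 15.2% were at least 2-fold higher and 9.16% at least 2-fold lower in the N-PRα-KO library.

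All 10 genes are protein coding and lie at separate places in the GRCm38 build. Cygb lies at chr11:116645595-116654313 on the minus strand, Ajap1 at chr4:153373221-153482811 on the minus strand, Fam210b at chr2:172345565-172355749 on the plus strand, and St8sia1 at chr6:142821545-142964452 on the minus strand. Kcnn3 lies at chr3:89520164-89675132 on the plus strand, Nostrin at chr2:69135800-69189330 on the plus strand and Fam163a at chr1:156075966-156205026 on the minus strand. Ttyh2 lies at chr11:114675431-114720977 on the plus strand, Sulf1 at chr1:12692277-12861192 on the plus strand and Htra3 at chr5:35652023-35679782 on the minus strand. Cygb overlaps exons of Prcd on the opposite strand, for which N-PRα-KO fibroblasts had 12 UMIs and WT fibroblasts 4. St8sia1 overlaps the predicted gene Gm7457, which was not analysed here.

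Promoter windows from 250 bases before to 50 after the start were taken from RefSeq (GRCm38.p6), which matched 8 of the 10 genes, leaving Cygb and Sulf1. The windows of 3 genes are shown because Ajap1, Fam210b and Nostrin were all over 10-fold higher in N-PRα-KO fibroblasts and yet span the range of base composition among the 8. Each is written 5′ to 3′ on the gene's strand, with capitals marking the GC box (GGGCGG, or CCGCCC on the other strand). The Ajap1 window is at chr4:153482781-153483080 on the minus strand, the Fam210b window at chr2:172345327-172345626 on the plus strand and the Nostrin window at chr2:69135550-69135849 on the plus strand.
Ajap1: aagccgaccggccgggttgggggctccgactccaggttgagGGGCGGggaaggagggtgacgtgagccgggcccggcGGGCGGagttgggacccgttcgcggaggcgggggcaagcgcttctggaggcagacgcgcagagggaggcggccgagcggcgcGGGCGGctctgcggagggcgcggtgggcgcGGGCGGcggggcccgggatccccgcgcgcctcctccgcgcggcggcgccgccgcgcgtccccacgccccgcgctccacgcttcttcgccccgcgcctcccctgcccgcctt
Fam210b: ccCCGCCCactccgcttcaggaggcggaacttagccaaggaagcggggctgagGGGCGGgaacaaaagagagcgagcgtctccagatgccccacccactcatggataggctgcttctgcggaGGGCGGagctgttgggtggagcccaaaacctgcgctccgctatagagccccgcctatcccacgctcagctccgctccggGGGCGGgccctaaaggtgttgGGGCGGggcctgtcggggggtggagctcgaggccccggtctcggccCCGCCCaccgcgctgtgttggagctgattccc
Nostrin: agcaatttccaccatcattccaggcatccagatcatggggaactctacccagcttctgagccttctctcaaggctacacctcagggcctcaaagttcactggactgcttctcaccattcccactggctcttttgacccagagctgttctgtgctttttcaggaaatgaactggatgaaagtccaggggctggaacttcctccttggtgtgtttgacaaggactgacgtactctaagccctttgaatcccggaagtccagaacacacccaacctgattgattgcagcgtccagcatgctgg

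The Ajap1 window held 4 GC boxes and 51 CpG, the Fam210b window 6 GC boxes and 24 CpG, and the Nostrin window 0 GC boxes and 3 CpG. A GC box was found in 5 of the 8 windows and in 35.7% of 32851 windows of the same length. The median CpG number was 14.5 in the 8 windows and 7 in all windows. On both strands, the E-box (CANNTG) was in 4 of 8 windows against 72.3% of all, the CCAAT box (CCAAT) in 4 of 8 against 37.4%, and the hypoxia response core (ACGTG) in 2 of 8 against 19.6%. The hypoxia response core can lie within an E-box, and a CCAAT box can overlap one. None of these 4 motifs was in all 8 windows.

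The targeted gene, Pdgfra, was at 2020 CPM in 57 N-PRα-KO and 5003 CPM in 3529 WT oligodendrocyte-lineage-like cells, and at 652 and 721 CPM in fibroblasts. Microglia-like cells had it at 23.3 and 267 CPM, so the background of Pdgfra was higher in the WT library, and the fibroblast values were not corrected for it. Which exons were deleted is not stated, and cells were enriched for the protein of this gene, so counts of Pdgfra check the genotype only in part. The libraries held 41982217 UMIs in 8336 barcodes (N-PRα-KO) and 43459947 UMIs in 11438 barcodes (WT). Requiring 300 genes per cell and allowing 25% of UMIs to be mitochondrial kept 50.3% and 88.0% of barcodes. The median N-PRα-KO fibroblast had 6268 UMIs, and the median WT fibroblast 4721. Just below the collagen threshold, at 0.3% to 0.4% of UMIs, there were 101 and 25 cells, and just above it, at 0.4% to 0.5%, there were 57 and 25. All 9 fibroblast markers were higher inside the fibroblast definition than outside it in both libraries, and 959 of the 1043 and 625 of the 669 cells lay in clusters with fibroblast-like markers. Most of the others were mural-like (43 and 15 cells) or endothelial-like (28 and 22 cells). Of N-PRα-KO fibroblasts 31.4%, and of WT fibroblasts 45.1%, also carried markers of another class at 0.4% of UMIs or more. The libraries share 105 barcode labels, 2 of them among fibroblasts. Xist had 16854 and 57638 UMIs and Y-linked genes 3973 and 300, so a difference in the sex of the animals cannot be told apart from genotype.

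Cygb had 1773 UMIs, or 239.6 CPM (UMIs per 1000000 UMIs summed over the fibroblasts), in N-PRα-KO fibroblasts and 105 UMIs, or 27.8 CPM, in WT fibroblasts. That is an 8.61-fold higher level (log2 ratio 3.11, interval 2.82 to 3.40). After each cell was thinned to 2000 UMIs, so that depth was equal, 29.2% of 1036 N-PRα-KO fibroblasts (26.4 to 32.0) and 3.93% of 610 WT fibroblasts (2.54 to 5.80) had a Cygb UMI. Without thinning the shares were 53.5% and 10.01%. Microglia-like cells, taken as a class that should lack Cygb, had thinned shares of 2.07% in the N-PRα-KO library and 0 of 509 cells in the WT library (exact upper limit 0.722%). These microglia-like cells had median depths of 5603 and 2788 UMIs before thinning.

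Nostrin, an F-BAR protein that moves endothelial nitric oxide synthase off the plasma membrane, was at 69.6 CPM (515 UMIs) in N-PRα-KO and 5.04 CPM (19 UMIs) in WT fibroblasts. The log2 ratio was 3.79 (3.13 to 4.53). Thinned shares were 11.3% and 0.820%, beside 2.59% and 0.589% in microglia-like cells. The intervals of the WT fibroblast share (0.267 to 1.90) and the WT microglia-like share (0.122 to 1.71) overlapped, so Nostrin stood at background in WT fibroblasts.

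Of the genes of the cell surface, junctions and membrane lipids, 4 were higher in N-PRα-KO fibroblasts. Ajap1, a transmembrane protein of adherens junctions, was at 225.4 CPM (1668 UMIs) against 10.9 CPM (41 UMIs), a 20.7-fold difference (log2 ratio 4.37, interval 3.93 to 4.86). St8sia1, the GD3 synthase, was at 152.6 CPM (1129 UMIs) against 22.8 CPM (86 UMIs), with a log2 ratio of 2.74 (2.43 to 3.08). Kcnn3 was at 62.2 CPM (460 UMIs) against 3.71 CPM (14 UMIs), with a log2 ratio of 4.07 (3.31 to 4.95). Ttyh2, a multi-pass membrane protein of the tweety family, was at 79.3 CPM (587 UMIs) against 6.10 CPM (23 UMIs), with a log2 ratio of 3.70 (3.10 to 4.37). In all 4 genes the N-PRα-KO interval lay wholly above the WT interval, but the genes were chosen by these levels, so this is a description. Thinned shares in N-PRα-KO fibroblasts were 30.1% for Ajap1, 20.9% for St8sia1, 10.6% for Kcnn3 and 13.4% for Ttyh2, against 1.64%, 5.25%, 0.492% and 1.15% in WT fibroblasts. N-PRα-KO microglia-like cells had shares from 0.864% (Kcnn3) to 2.25% (Ttyh2) for these 4 genes. In the WT library the fibroblast intervals of Kcnn3 (0.102 to 1.43) and Ttyh2 (0.463 to 2.35) overlapped those of microglia-like cells (0 to 0.722 and 0.215 to 1.9998), so these genes were at background in WT fibroblasts too.

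Fam210b, a mitochondrial protein known from haem synthesis in red cell precursors, was at 401.8 CPM (2973 UMIs) against 37.6 CPM (142 UMIs). The log2 ratio was 3.42 (3.17 to 3.67), and thinned shares were 42.0% and 6.56%, beside 7.25% and 2.95% in microglia-like cells. Fam163a, a small and little-studied protein, was at 70.8 CPM (524 UMIs) against 2.12 CPM (8 UMIs), with a log2 ratio of 5.06 (4.07 to 6.28). Its thinned shares were 11.5% and 0.328%. Its ratio was the highest of the 10 and ranked 8 of the 7480 genes that reached 20 CPM on either side, but it rests on 8 WT UMIs.

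The genes that act on the matrix stood apart from the other 8. Sulf1 was at 81.1 CPM (600 UMIs) in N-PRα-KO and 97.8 CPM (369 UMIs) in WT fibroblasts, a log2 ratio of -0.27 (-0.46 to -0.08), with thinned shares of 11.1% and 16.7%. Htra3 was at 62.4 CPM (462 UMIs) and 134.6 CPM (508 UMIs), a log2 ratio of -1.11 (-1.29 to -0.92), with thinned shares of 8.30% and 11.3%. The N-PRα-KO share of Htra3 (6.69 to 10.2) overlapped that of microglia-like cells in the same library, which was 5.35% (3.67 to 7.51). In WT cells that carried it, Htra3 averaged 3.94 UMIs and reached 29 UMIs in 1 cell, the highest value of any of the 10 genes in any fibroblast. The number of UMIs per carrying cell was between 1.60 and 4.62 for the other 8 genes in the N-PRα-KO library, with the highest mean for Fam210b.

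**Figure D1:**
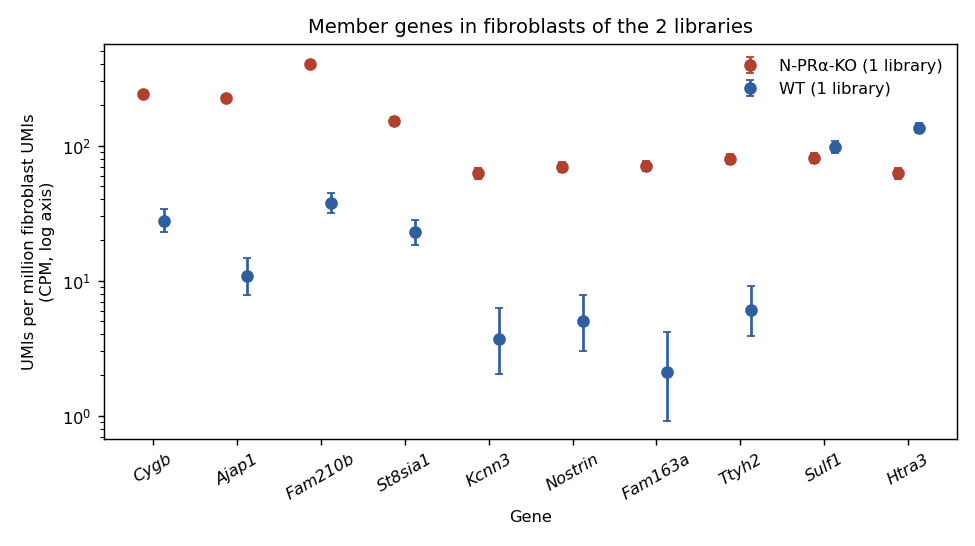
Level of each gene in fibroblasts, as UMIs per 1000000 fibroblast UMIs on a log axis, for the N-PRα-KO library (1043 cells) and the WT library (669 cells), with 95% counting intervals. Cygb to Ttyh2 stand higher in the N-PRα-KO library (Cygb 239.6 against 27.8 CPM), Sulf1 is near level (81.1 against 97.8) and Htra3 is lower (62.4 against 134.6).

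The median log2 ratio of the 10 genes was 3.56, beside -0.02 over the 7480 genes. The ratio between the libraries moved with base composition across 7456 genes (Spearman rho 0.54 between log2 ratio and the GC percent of the last 500 transcript bases, across genes, which are not independent). With that trend removed, the median of the 10 genes was 2.98. Cygb, whose transcript end is 57.8% GC, went from 3.11 to 1.92. Kcnn3, at 31.4% GC, went from 4.07 to 4.54. Sulf1 turned from -0.27 to 0.06, and Htra3 went from -1.11 to -2.09. Haemoglobin RNA also moved with the library: Hba-a1 was at 52.6 CPM in N-PRα-KO and 0.265 CPM in WT fibroblasts, and its part in the levels above was not tested. Limiting mitochondrial UMIs to 10% left 80 N-PRα-KO and 9 WT fibroblasts deep enough to thin. At that limit 3 of the 10 genes were at least 2-fold higher, and Sulf1 was at 0.71 on the log2 scale. Those 3 were Cygb (2.07), Ajap1 (2.10) and Fam210b (2.08). The WT counts at that limit are not given here, and counts under 3 were set to 3, so these ratios may rest on that floor. The share of all genes at that limit was not computed.

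In cells other than fibroblasts, the same genes differed less between the libraries or in other ways. The log2 ratio there was 1.25 for Cygb, 1.39 for Ajap1, 0.68 for Fam210b, 0.17 for Kcnn3, 0.25 for Fam163a and 1.76 for Ttyh2. It was -1.23 for St8sia1 and 2.57 for Nostrin. Sulf1 and Htra3, which were not higher in N-PRα-KO fibroblasts, were at 0.53 and 1.04 in the other cells. The mix of cell classes outside the fibroblasts was not the same in the libraries, so these ratios mix level and composition.

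Some fibroblasts of the N-PRα-KO library carried several of the genes at once. The genes were chosen by their levels in these cells, and other sets of genes were not counted. A thinned N-PRα-KO fibroblast had a UMI for 1.88 of the 10 genes on average and a WT one for 0.482, a difference of 1.40. At least 1 gene was found in 74.4% of N-PRα-KO and 37.5% of WT fibroblasts. At least 3 genes were found in 34.7% (359 of 1036 cells) and 1.15% (7 of 610 cells), and at least 5 in 6.66% and in 0 of 610 cells. The most genes in 1 thinned cell were 7 for N-PRα-KO and 3 for WT fibroblasts. Without thinning the means were 3.87 and 0.967, and 1 N-PRα-KO fibroblast had all 10.

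**Figure D2:**
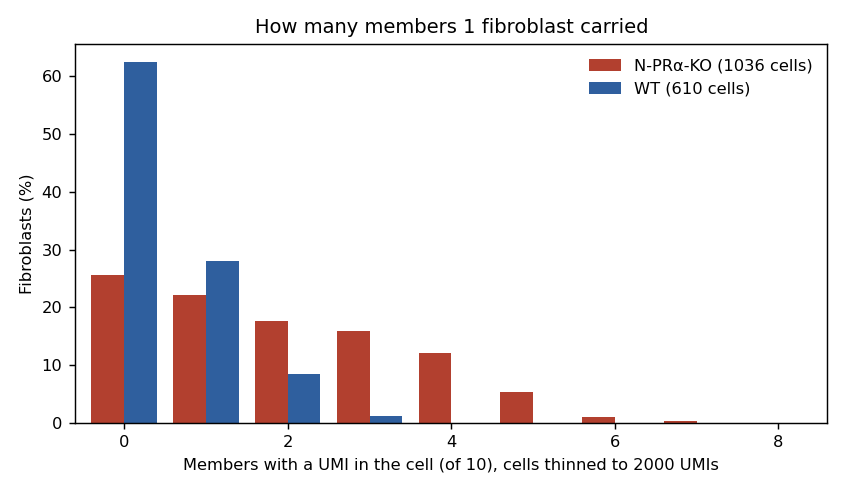
Share of fibroblasts (%) by how many of the 10 genes had a UMI, in cells thinned to 2000 UMIs, for 1036 N-PRα-KO and 610 WT cells. WT cells pile up at 0 genes (62.5%) and reach no further than 3, while 25.6% of N-PRα-KO fibroblasts have 0 and the tail runs to 7.

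In thinned N-PRα-KO fibroblasts, pairs of 8 of the genes were found together in a cell more often than the product of their single shares gives, while most pairs with Sulf1 or Htra3 were not. In these cells the ratio of the joint share to that product ran from 1.24 to 2.22 over the 28 pairs of the 8 genes, with a median of 1.54. Kcnn3 and Fam163a had the ratio of 2.22: 28 cells had both, out of 110 with Kcnn3 and 119 with Fam163a. Nostrin and Ttyh2 were at 1.85, with 29 cells in common, and Cygb and Ttyh2 at 1.80, with 73. Cygb and Fam210b met in 193 cells (ratio 1.52), so 63.9% of the 302 Cygb cells had Fam210b, against 33.0% of the cells without Cygb. The 17 pairs with Sulf1 or Htra3 ran from 0.454 (Ttyh2 and Sulf1, 7 cells) to 1.26 (Sulf1 and Htra3, 12 cells), with a median of 0.787, and 3 of the 17 were above 1. In whole N-PRα-KO cells, not thinned, 39 of all 45 pairs were above 1, Cygb and Htra3 among them at 1.29. In WT fibroblasts Cygb met the other genes differently: not thinned, 44 of 67 Cygb cells also had Htra3 (ratio 3.41) and 38 had Sulf1 (1.82), while 3 had Ajap1 (0.856) and 0 had Kcnn3. In thinned WT cells the ratios were 2.21 for Htra3 and 2.24 for Sulf1, on 6 and 9 cells, and no cell had Cygb with Ajap1, Kcnn3, Fam163a or Ttyh2. Pairs were not split by cell state except by Col15a1, given below. Ratios for pairs of other genes were not computed, so how often such pairs lie above 1 is not known. The ratios describe a mixed set of fibroblasts and are not shown to be particular to these genes.

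When each library's fibroblasts were clustered again without the 10 genes, the genes were concentrated in some sub-clusters. In the N-PRα-KO library, the sub-cluster led by Tbx3os1 and Chp2 (279 cells) held Cygb at 307 CPM, Ajap1 at 484 CPM, Fam210b at 768 CPM, Nostrin at 136 CPM and Fam163a at 140 CPM. The sub-cluster led by Runx1 and Prdm1 (206 cells) held Cygb at 484 CPM, St8sia1 at 276 CPM, Kcnn3 at 119 CPM and Ttyh2 at 151 CPM. In these sub-clusters 65.1% and 64.1% of thinned cells had at least 3 of the 10 genes. The sub-cluster led by Sidt1 and Ptgds (278 cells) stood low, with Cygb at 49.4 CPM, Ajap1 at 43.8 CPM and at least 3 genes in 1.44% of cells. The sub-cluster led by Aldh1a1 and Fam180a (127 cells) lay between them, with Cygb at 151 CPM and Ajap1 at 210 CPM, and had the highest Sulf1 of the 8 sub-clusters, at 195 CPM. Dividing cells, led by Top2a and Mki67 (32 cells), had Cygb at 204 CPM and Ajap1 at 245 CPM. In the sub-cluster led by Tagln and Myh11 (43 cells), mural genes, Kcnn3 and Fam163a had 0 UMIs.

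The high sub-clusters were also high in Col15a1, a collagen of basement membrane zones and a marker of perivascular fibroblasts. Col15a1 was at 4699 CPM in the sub-cluster led by Tbx3os1, 4433 CPM in that led by Runx1 and 4359 CPM in that led by Aldh1a1, but at 571 CPM in that led by Sidt1. In the WT library the sub-cluster led by Col15a1 and Fbln2 (137 cells, Col15a1 at 2805 CPM) had Fam210b at 117 CPM, St8sia1 at 70.1 CPM and Sulf1 at 186 CPM, but Cygb at 20.01 CPM and Nostrin at 5.72 CPM. It had on average 0.900 of the 10 genes per thinned cell, against 0.2025 and 0.161 in the WT sub-clusters led by Ptgs2 and by Atp13a5. The WT sub-cluster led by Slc4a10 and Nov (114 cells) had as many, 0.917, with Col15a1 at 8.46 CPM, but from other genes. Htra3 was in 52.3% of its thinned cells and Sulf1 in 20.2%, against 5% and 34.2% in the Col15a1-led sub-cluster. Fam210b was in 3.67% against 20.8% and St8sia1 in 1.83% against 16.7%. Cygb, at 11.9% against 5.83%, and Nostrin, at 1.83% against 0%, went the other way.

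**Figure D3:**
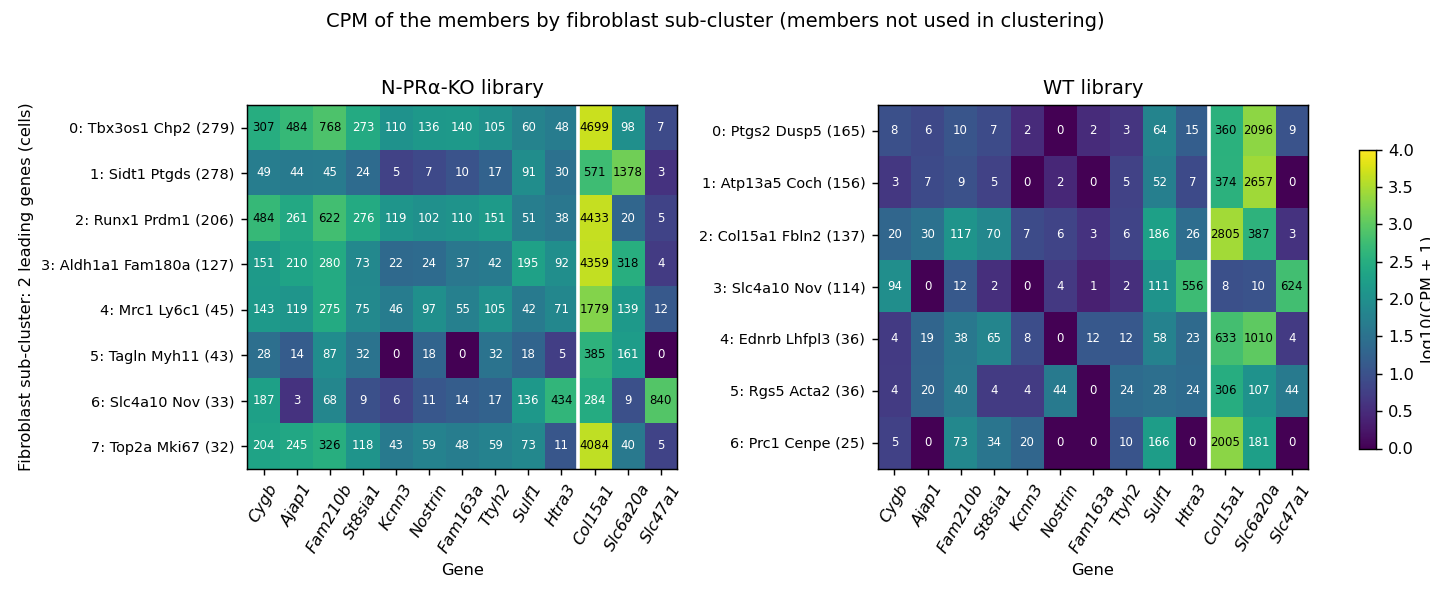
CPM of the 10 genes and of Col15a1, Slc6a20a and Slc47a1 in fibroblast sub-clusters of each library, coloured by log10(CPM + 1), with the 2 leading genes and number of cells of each sub-cluster at the left. Cygb is at 307 and 484 CPM in N-PRα-KO sub-clusters 0 and 2, where Col15a1 is at 4699 and 4433 CPM, and at 94.3 CPM in WT sub-cluster 3, where Col15a1 is at 8.46 CPM and Htra3 at 556 CPM.

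Most of the WT Cygb lay in another kind of fibroblast. Apart from 1 cluster, fibroblast-like clusters lay almost wholly in 1 library, with 623 and 1, 1 and 523, and 325 and 8 N-PRα-KO and WT cells. The largest microglia-like (542 and 0, 7 and 527) and ependymal-like clusters (499 and 0, 1 and 354) split likewise. The largest neuronal-lineage-like clusters were mixed (128 and 403, 94 and 406). The split between libraries was thus not confined to fibroblasts. The shared fibroblast-like cluster was led by Nov, H19 and Slc47a1, the last a marker of arachnoid fibroblasts, with 36 N-PRα-KO and 116 WT fibroblasts. With cells below the collagen share the cluster held 64 and 122 cells, so the fibroblast definition left out more of its N-PRα-KO cells. The values below cover the 36 and 116 fibroblasts. This cluster held 79 of the 105 WT Cygb UMIs but 66 of the 1773 N-PRα-KO ones. Cygb was at 171 CPM (132 to 218) in its N-PRα-KO and 92.0 CPM (72.8 to 115) in its WT cells, a log2 ratio of 0.89 (0.40 to 1.38). Htra3 was at 399 and 545 CPM there, and these cells held 468 of the 508 WT Htra3 UMIs. Sulf1 was at 130 and 107 CPM. Ajap1 and Kcnn3 each had 2 UMIs among N-PRα-KO cells and 0 among WT cells, where the exact upper limit is 4.30 CPM. Cygb in this cluster was thus accompanied by Htra3 and not by Ajap1 or Kcnn3. Leaving the cluster out, which was decided on with these values in view, gave Cygb a log2 ratio of 4.77 over all other fibroblasts and turned that of Htra3 to 1.68.

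Because Col15a1 itself stood at 3045 CPM in N-PRα-KO and 843 CPM in WT fibroblasts, the genes were compared at either side of Col15a1 at 0.1% of UMIs, a split also decided on with the values in view. At or above it lay 706 N-PRα-KO fibroblasts (67.7%) and 173 WT fibroblasts (25.9%). Among these cells Cygb was at 312 CPM against 13.7 CPM (log2 ratio 4.51), Ajap1 at 305 against 24.3 (3.65), and Fam210b at 553 against 100.3 (2.46). St8sia1 was at 210 against 63.3 CPM (1.73) and Kcnn3 at 86.7 against 10.6 CPM (3.04). Nostrin, Fam163a and Ttyh2 had log2 ratios of 4.47, 4.52 and 4.30. For Fam210b and St8sia1 these ratios were below those over all fibroblasts, with intervals that did not overlap (2.17 to 2.77 against 3.17 to 3.67 for Fam210b, and 1.36 to 2.13 against 2.43 to 3.08 for St8sia1). For Cygb the ratio was above that over all fibroblasts (3.73 to 5.42 against 2.82 to 3.40). The Col15a1-rich cells are part of all fibroblasts, so the intervals compared are not independent. Sulf1 had a log2 ratio of -0.99 and Htra3 of 1.38, opposite in sign to its ratio over all fibroblasts. On the Col15a1-rich side all of the genes except Sulf1 were thus at least 2-fold higher in N-PRα-KO cells. The share of all measured genes that were 2-fold higher on this side was not computed, so this is a description.

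Below the Col15a1 split the 8 genes were also higher in the N-PRα-KO library, at lower levels. Cygb was at 75.6 CPM against 32.6 CPM (log2 ratio 1.21, interval 0.84 to 1.60) and Ajap1 at 46.1 against 6.37 (2.86). Fam210b was at 61.9 against 16.6 CPM (1.90), and the other 5 had log2 ratios between 1.31 (St8sia1) and 3.07 (Fam163a). On this side a thinned N-PRα-KO cell had 0.5685 of the 10 genes on average and a WT cell 0.4009, a difference of 0.168. The means were 2.516 and 0.7179 on the Col15a1-rich side. Below the split these means include Sulf1, in 11.6% of N-PRα-KO and 13.7% of WT cells, and Htra3, in 7.14% and 13.7%. Each of the other 8 genes was in a larger share of N-PRα-KO than of WT cells there. Within the Col15a1-rich N-PRα-KO cells alone, 26 of the 28 pairs of the 8 genes still met more often than the product of their shares. The median ratio there was 1.17 in place of 1.54. Pairs of other genes were not computed in these cells either.

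**Figure D4:**
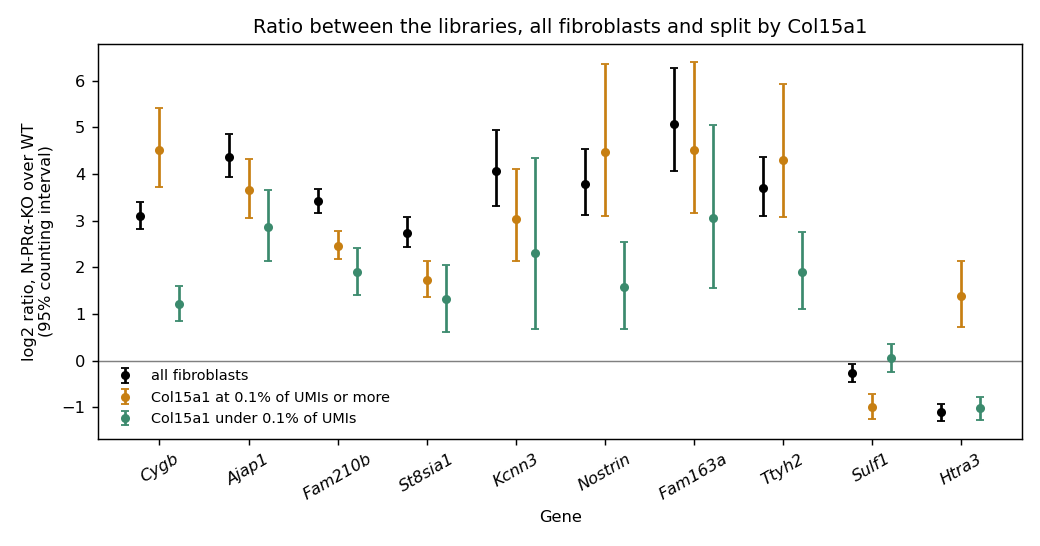
Log2 ratio (N-PRα-KO over WT) for each gene over all fibroblasts and over cells with Col15a1 at or above and under 0.1% of UMIs, with 95% counting intervals and a line at 0. Cygb is at 3.11, 4.51 and 1.21 in the 3 sets, and Htra3 at -1.11, 1.38 and -1.02.

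The genes were not equally particular to fibroblasts. In the N-PRα-KO library 6 of the 10 were at least 3-fold higher in fibroblasts than in all other kept cells, where 5.95% of the 6769 genes at 20 CPM or more were. They were Ajap1 (15.6-fold), Cygb (11.2-fold), Fam163a (7.26-fold), St8sia1 (5.47-fold), Sulf1 (4.53-fold) and Fam210b (4.05-fold). In the WT library 3 of the 10 were, Sulf1 (7.88-fold), Htra3 (7.35-fold) and Cygb (3.08-fold), where 11% of 6398 genes were. Fam210b, St8sia1, Kcnn3, Nostrin, Fam163a and Ttyh2 were lower in WT fibroblasts than in the other WT cells.

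Among classes of at least 50 cells, Cygb was highest in fibroblasts of each library. In the N-PRα-KO library mural-like cells came next at 47.5 CPM, and in the WT library oligodendrocyte-lineage-like cells did at 16.1 CPM. Both intervals lay apart from that of fibroblasts. Ajap1 was also highest in fibroblasts, but in the WT library its interval at 10.9 CPM overlapped that of oligodendrocyte-lineage-like cells at 9.70 CPM. Sulf1 was highest in fibroblasts of both libraries. A class of 39 choroid-plexus-like cells in the N-PRα-KO library, under the 50-cell minimum, had Sulf1 at 369 CPM.

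Nostrin and Ttyh2 were highest in endothelial-like cells of both libraries. Nostrin was at 204 CPM in N-PRα-KO and 152 CPM in WT endothelial-like cells, beside 69.6 and 5.04 CPM in fibroblasts. Ttyh2 was at 122 and 111 CPM in endothelial-like cells. Endothelial markers had median shares of 0.0423% and 0.0274% of UMIs in the fibroblasts of the 2 libraries, and without fibroblasts that carried markers of another class the log2 ratio of Nostrin was 4.27 and that of Ttyh2 4.59. Htra3 was at 74.8 CPM in N-PRα-KO and 154.5 CPM in WT endothelial-like cells, the latter overlapping the WT fibroblasts at 134.6 CPM. Within the N-PRα-KO library it was highest, at 142 CPM, in 54 cells of fibroblast-like clusters below the collagen share.

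Kcnn3, St8sia1, Fam163a and Fam210b were each higher in a neural, glial or ependymal class than in WT fibroblasts. Kcnn3 was at 67.2 and 73.8 CPM in ependymal-like cells and at 52.3 and 69.1 CPM in astrocyte-like cells. St8sia1 was at 119 CPM in WT ependymal-like and 101 CPM in WT oligodendrocyte-lineage-like cells, beside 77.1 and 57.7 CPM in their N-PRα-KO counterparts. Fam163a was at 29.1 and 29.6 CPM in astrocyte-like cells, so the libraries lay close together there. Fam210b was at 284 and 215 CPM in neuronal-lineage-like cells and at 171 and 157 CPM in astrocyte-like cells. In the N-PRα-KO library fibroblasts ranked first among 11 classes for Cygb, Ajap1, Fam210b, St8sia1, Fam163a and Sulf1. In the WT library they ranked first among 10 classes for Cygb, Ajap1 and Sulf1. The share of all genes for which fibroblasts rank first was not computed. The 10 genes were chosen by their fibroblast levels, so these ranks are a description.

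**Figure D5:**
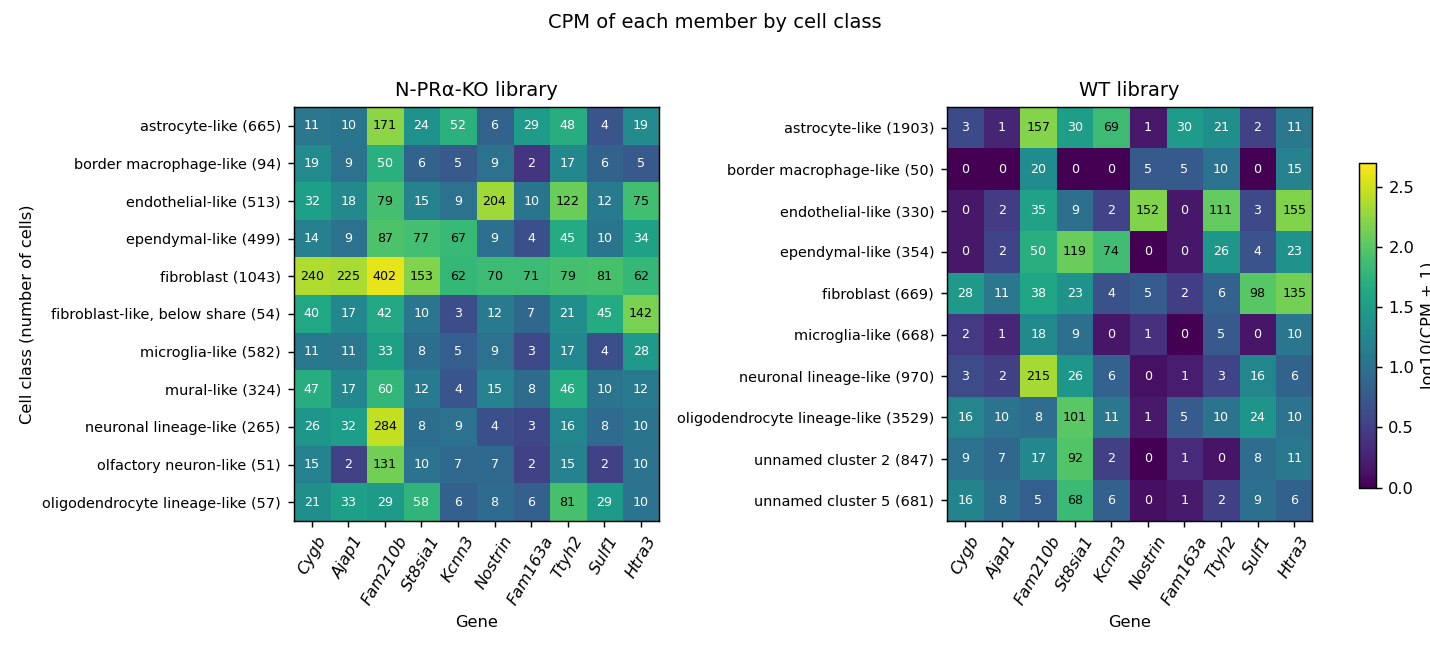
CPM of each gene (columns) by cell class with at least 50 cells (rows, number of cells in brackets) in the N-PRα-KO and WT libraries, coloured by log10(CPM + 1). The fibroblast row is filled across all 10 genes in the N-PRα-KO library (62.2 to 401.8 CPM), while in the WT library it is high for Sulf1 and Htra3, and Nostrin stands in endothelial-like cells of both (204 and 152 CPM).

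The genes whose pattern was most like that of Cygb over 21 points, each a class in a library, were Col7a1 (Pearson's r 0.909 on log2(CPM + 10)), Scube1 (0.883), C1qtnf1 (0.880), Fbn2 (0.870) and Lrrc17 (0.870), out of 6551 genes. Col7a1, an anchoring-fibril collagen, was at 137 CPM in N-PRα-KO and 8.48 CPM in WT fibroblasts. Fbn2, a microfibril protein, was at 449 and 147 CPM. Without the point for N-PRα-KO fibroblasts, r was between 0.72 and 0.81 for the 5 genes. Among the 10 genes, Ajap1 had an r of 0.92 with Cygb and Sulf1 of 0.72, and the other 7 ranged from 0.14 for Kcnn3 to 0.57 for Fam163a. Without the point for N-PRα-KO fibroblasts, r was 0.83 for Ajap1 and 0.60 for Sulf1, and from -0.19 for Kcnn3 to 0.19 for Ttyh2 among those 7. The points share libraries and depth, and r is given as a description.

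Other genes of the same pathways did not all go with the 10. In each list below the genes counted are those other than the 10 that reached 20 CPM in fibroblasts of either library, and 15.2% of all such genes were at least 2-fold higher and 9.16% at least 2-fold lower in the N-PRα-KO library. Of 9 nitric oxide signalling genes, 5 were at least 2-fold higher and 0 lower (median log2 ratio 1.02). The guanylate cyclase subunits that sense nitric oxide, Gucy1b1 and Gucy1a1, were at 38.5 against 16.4 CPM and 29.7 against 14.3 CPM, and Pde5a, which breaks down cyclic GMP, was at 183 against 85.9 CPM. In the N-PRα-KO library Gucy1b1 and Gucy1a1 were no higher in fibroblasts than in the other cells (0.891 and 0.681 times), and neither were Prkg1 (0.824 times) and Cyb5r3 (0.851 times), which complete the 5. Pde5a was at 3.68 times. Of 17 antioxidant enzymes 1 was at least 2-fold higher, Sod3 (extracellular superoxide dismutase, 385 against 88.8 CPM), and 1 lower, Nqo1 (21.6 against 50.1 CPM), with a median of -0.31. All 3 measured haemoglobin genes were higher, with a median of 6.05. In N-PRα-KO fibroblasts Hba-a1, Hba-a2 and Hbb-bs stood at 0.486, 0.523 and 0.602 times their level in the other cells, while Cygb stood at 11.2 times. The other globins Ngb and Mb had 8 and 5 UMIs in N-PRα-KO fibroblasts, and 2 and 0 in WT ones.

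Of 3 measured potassium channel genes 2 were at least 2-fold higher, Kcnj8 (20.4 against 1.59 CPM) and its partner Abcc9 (51.8 against 9.81 CPM), both also mural markers, and Kcnk2 was at 127 against 134 CPM. In both libraries Kcnj8 and Abcc9 were no higher in fibroblasts than in the other cells, at 0.945 and 0.980 times in the N-PRα-KO library. The other calcium-activated channels of the Kcnn family were scarce, with 32 and 15 UMIs for Kcnn2, 6 and 5 for Kcnn1 and 2 and 1 for Kcnn4. Of 7 ganglioside genes 0 were at least 2-fold higher and 1 was lower, St6galnac5 (7.84 against 32.6 CPM), beside the log2 ratio of 2.74 for St8sia1. Of 2 other tweety genes neither was 2-fold different, with Ttyh1 at 114 against 84.5 CPM and Ttyh3 at 135 against 104 CPM.

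Of 14 heparan sulfate genes 2 were at least 2-fold higher and 5 lower, with a median of -0.65. Sulf2, the other extracellular sulfatase, was at 60.8 against 150 CPM, and Hs6st2, which adds the sulfate groups that Sulf1 and Sulf2 remove, at 20.4 against 139 CPM. Ext2, which builds the chain, was at 63.4 against 18.0 CPM. Of 7 proteases of the HtrA and TGF-beta list 1 was higher, Htra2 (20.5 against 10.1 CPM), and 1 lower, Pcsk5 (19.7 against 63.1 CPM), and Htra1 was at 148 against 110 CPM. Of 6 F-BAR genes 2 were higher, Fnbp1 (102 against 46.6 CPM) and Trip10 (22.8 against 10.9 CPM). Of 11 adherens junction genes 2 were higher, among them Bsg, which encodes a binding partner of Ajap1 (945 against 269 CPM), and 3 were lower, among them Cdh1 (9.19 against 44.0 CPM) and Cdh5 (89.2 against 255 CPM). Fam210a, the paralogue of Fam210b, was at 20.5 against 27.3 CPM. Fam163b had 21 and 3 UMIs and St8sia5, the next ganglioside sialyltransferase, 9 and 0. Of the 5 paralogues that reached 20 CPM, none was at least 2-fold higher in N-PRα-KO fibroblasts, and Sulf2 was lower.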

How the data were processed

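Expression was measured in 2 single-cell libraries, 1 per genotype. The deposited tables hold raw counts of UMIs per cell and gene, after the pipeline's own error correction and cell calling. Per the file headers, the authors used BD Rhapsody's WTA Analysis Pipeline in version 1.10 (N-PRα-KO) and version 1.10.1 (WT), run on different dates, with GRCm38 and the GENCODE M19 annotation. The submitters' processing notes name GRCm38 and mm10, and the name of an aligner was not given in the sources used here. Pipeline version and run date cannot be told apart from genotype.

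Cells were kept from 300 genes upward and up to 25% mitochondrial UMIs. Fibroblasts had Col1a1, Col1a2 and Col3a1 at 0.4% of UMIs or more. Other classes came from Leiden clusters (scanpy 1.11.5, leidenalg 0.10.2; 2000 variable genes per library, 30 components, 20 neighbours, resolution 1, no integration), made without the 10 genes and called "-like" from marker lists. Fibroblasts of each library were clustered again alone (1000 variable genes, 20 components, resolution 0.5). Scrublet called 10 N-PRα-KO cells (0.238%), which is too few to have worked there, and 174 WT cells, so its calls were removed only as an alternative.

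For each class, UMIs were summed within a library and scaled to CPM with exact Poisson intervals. Log2 ratios carry exact conditional intervals, shares exact Clopper-Pearson intervals, and counts under 3 were set to 3 for ratios. To compare shares, each cell was thinned to 2000 UMIs, which left out 7 N-PRα-KO and 59 WT fibroblasts. UMIs are molecules, but the intervals cover counting error only. No test was made, since cells of 1 library are not replicates. The ratio script was tested on simulated data. Positions came from GENCODE M21, on the same build. The 10 genes, the gene lists and the markers were chosen with earlier results of these data known. All 10 genes were named, with up to 3 genes of each related list by size of ratio, close paralogues of the 10, and the 5 genes most like Cygb. Alternatives varied the collagen share, mitochondrial limit, gene and CPM minimum, thinning, doublet calls, GC trend, weighting of cells and cell definition.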

Additional observations from a re-analysis of the deposited data

How the results depend on the processing

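With 1 library per genotype no replicate could be left out. No paired analysis was possible because each genotype has 1 library and the labels carry no replicate numbers. The number of the 10 genes at least 2-fold higher in N-PRα-KO fibroblasts, 8 as reported, was within 1.5 times of that in 16 of 18 alternatives and ranged from 3 to 9. It was 3 with mitochondrial UMIs limited to 10%, which left 80 N-PRα-KO and 9 WT thinned fibroblasts. With so few WT cells, ratios at that limit may be set by the floor of 3 counts. With only the 5 genes at 100 CPM or more counted, it was 4. Shares of all genes were not computed for alternatives that changed the cells, nor for genes at 100 CPM or more. The number at least 3-fold higher in fibroblasts than in other N-PRα-KO cells, 6 as reported, stayed within 1.5 times in 14 of 15 alternatives and was 3 in fibroblasts with Col15a1 under 0.1% of UMIs. The difference in mean genes per thinned fibroblast, 1.40 as reported, was above 0 in all 14 alternatives and stayed near that value in 5 of them. It was 1.14 at a collagen share of 0.2%, 1.66 at 1% and 1.77 with mitochondrial UMIs limited to 10%. Without fibroblasts carrying markers of another class it was 1.78. It was 1.80 with Col15a1 at 0.1% or more and 0.168 under it, where Sulf1 and Htra3 were in a larger share of WT cells. Thinning to 1000 or 4000 UMIs gave 0.859 and 2.21, and no thinning gave 2.90, since more UMIs per cell show more genes. The Col15a1 split and the removal of the cluster led by Nov and Slc47a1 were added with the data in view. Single genes changed sign as follows: Sulf1 to 0.71 with mitochondrial UMIs limited to 10%, to 0.0556 with Col15a1 under 0.1% and to 0.0639 with the GC trend removed, and Htra3 to 1.38 with Col15a1 at 0.1% or more and to 1.68 without the cluster led by Nov and Slc47a1. The cause was not tested. The other 8 genes kept a log2 ratio above 0 in all 16 alternatives. The lowest was 0.12 for Nostrin, under the mitochondrial limit of 10%, where it may rest on the floor. The counting intervals are widest where WT counts are low, with 8, 14 and 19 UMIs for Fam163a, Kcnn3 and Nostrin among 3773014 WT fibroblast UMIs, beside 7399579 in the N-PRα-KO library.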

Other observations

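Dividing fibroblasts gave a further view of the same genes. In the N-PRα-KO library the sub-cluster led by Top2a and Mki67 (32 cells) had 1.97 of the 10 genes per thinned cell, with at least 3 in 31.3% of cells, and Col15a1 at 4084 CPM. In the WT library the sub-cluster led by Prc1 and Cenpe (25 cells) had 0.417 per thinned cell and Col15a1 at 2005 CPM. Ajap1 was at 245 CPM in the former and had 0 UMIs in the latter. With 32 and 25 cells and 1 library each, these are values without a test.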
